A study of Arabidopsis thaliana with 24 samples.

Results

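The 150 probe sets described here detect nuclear transcripts that were richest in polysome-bound RNA, relative to total RNA, in dark-grown control seedlings of Arabidopsis thaliana. Loading is the log2 signal in polysomal RNA minus that in total RNA, each array first centred on the median of its probe sets. A value of 0 is therefore the loading of a typical probe set, and a value of 1 means that the ratio of polysomal to total signal is 2 times that of a typical probe set. Eligible were the 4782 probe sets that map to 1 nuclear gene and whose total-RNA signal averaged at least 8 on the log2 scale over all total-RNA arrays. The 150 with the highest mean loading in dark control were taken from these, out of 22810 probe sets on the array. They stand for 149 genes, because AT3G48570 is represented by 2 of them. The arrays of dark control chose these transcripts, so their loading there is given as a description. Tests compare only the other 3 combinations of genotype and light. Their estimate of spread comes from all arrays, and total-RNA arrays of every condition entered the level threshold. Arrays with the same replicate number also shared part of their deviations across the conditions compared. Whether the dark control arrays share in this was not computed, so the tests may not be fully independent of the choice.

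The groups were dcp5-1 seedlings given 4 h of white light, dcp5-1 seedlings kept dark, control seedlings given the same light, and control seedlings kept dark. All were 4-d-old etiolated seedlings in the Col-0 ecotype, of which the aerial parts were taken. From each group total RNA and polysome-bound RNA were hybridised to Affymetrix ATH1 arrays in 3 biological replicates, which makes 8 groups and 24 arrays. The mutant is represented by a single line, and the labels do not describe its lesion.

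Polysomes are mRNAs that carry several ribosomes at once, and the share of a transcript found in them is used as a measure of how actively it is translated. A transcript can also be kept out of polysomes, among other places in processing bodies, cytoplasmic granules that hold repressed mRNAs and the enzymes that remove their caps. DCP5, for DECAPPING 5, is a processing-body protein with roles in decapping and in the repression of translation. Seedlings grown in darkness have a long hypocotyl and closed, pale cotyledons, and white light starts their greening, in which new nuclear transcripts for plastid proteins are made and translated.

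Arrays of the same group correlated at Pearson's r = 0.93 to 0.96 across probe sets. The median signal of the polysomal arrays lay below that of the total-RNA arrays by an amount that differed between conditions. As the mean ± SD of 3 pairs, the polysomal minus total difference of array medians was -0.96 ± 0.28 in light dcp5-1, -1.33 ± 0.25 in dark dcp5-1, -0.97 ± 0.21 in light control and -2.22 ± 0.63 in dark control, on the log2 scale. Centring removes this shift, so loading here is relative to the typical transcript and holds nothing on how much RNA was on polysomes in all. Of the marker genes of etiolated aerial tissue, PORB, which makes chlorophyllide in the light, had a median total-RNA signal of 12.9 over all total-RNA arrays, and LHCB4.1, an antenna protein of photosystem II, one of 13.6. The root epidermis genes EXPA7 and EXPA18 had medians of 4.03 and 5.97. The probe table used here names no probe set for DCP5, so the genotype labels were not checked against the gene itself.

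As a group, the transcripts best loaded in dark control were also well loaded in the other conditions, in both genotypes and in light as well as darkness. This is not particular to the 150, since the order of loading was kept across all 4782 eligible probe sets. Over these, Spearman's rho of dark control loading was 0.85 with light dcp5-1, 0.88 with dark dcp5-1 and 0.86 with light control. The median loading of the 150 was 1.06 in light dcp5-1, 1.08 in dark dcp5-1 and 1.10 in light control, beside 1.15 in the dark control arrays that chose them. Other eligible probe sets had medians of 0.028, 0.0055, 0.028 and 0.032 in the same 4 conditions. All 150 had a mean loading above 0 in each condition. The lowest was 0.32 in light dcp5-1, 0.44 in dark dcp5-1 and 0.30 in light control, and the highest was 1.90, 1.91 and 1.73.

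Of the 150, 125 were higher in polysomal than in total RNA in light dcp5-1, 125 in dark dcp5-1 and 129 in light control, and 0 were lower (limma, Benjamini-Hochberg adjusted p under 0.05 over 17059 probe sets). All 150 were among the probe sets tested. In the same direction 7.81%, 8.04% and 8.9% of all probe sets tested were called in these 3 conditions. Among the other eligible probe sets the shares were 9.13%, 8.89% and 11%. Of the members, 110 were called in all 3 conditions, 20 in 2, 9 in 1 and 11 in none. Of the other 4632 eligible probe sets 217, 193, 309 and 3913 were. With the replicate number as a block 137 members were called in all 3, 6 in 2, 4 in 1 and 3 in none. With each polysomal array paired to its total array the counts were 145, 3, 1 and 1. Calls rose among all probe sets too. In light dcp5-1, dark dcp5-1 and light control they came to 13.7%, 13.6% and 14.5% with the block. With the pairing they came to 16.8%, 16.9% and 17.7%. In bulk RNA of a whole organ, a change in the cells that hold a transcript and a change of its loading within each cell cannot be told apart.

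**Figure D1:**
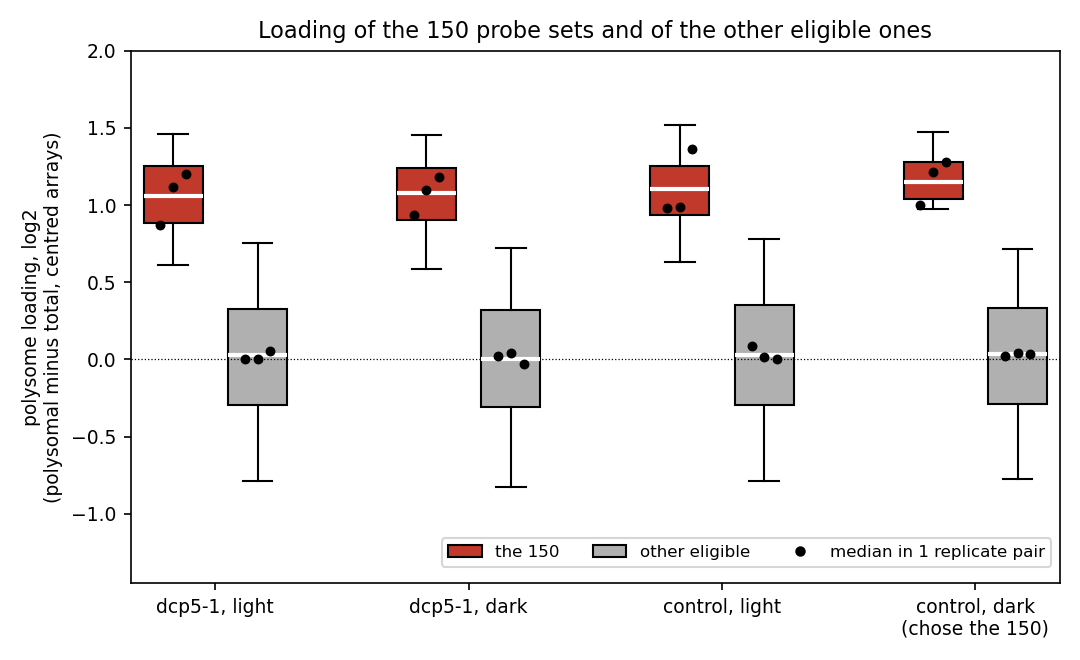
Loading (polysomal minus total RNA, log2, arrays centred on their medians) of the 150 probe sets in red and of the other 4632 eligible probe sets in grey, for dcp5-1 in light, dcp5-1 in darkness, control in light and control in darkness; boxes span the quartiles with the median as a white line, whiskers run from the 5th to the 95th percentile, and black points are the medians in the 3 replicate pairs. In the 3 conditions that did not choose them, the middle of the 150 lies at 1.06 to 1.10, and that of the other eligible probe sets at 0.0055 to 0.028.

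The order of the transcripts was kept in part. Of the 150, 93 (62.0%) were among the 150 best loaded eligible probe sets in light dcp5-1, 100 (66.7%) in dark dcp5-1 and 95 (63.3%) in light control. Nearly all of the others stayed in the upper 25% of the 4782, which held 149, 150 and 149 of the members. The members had median ranks of 111, 90.5 and 98 in these conditions, and the worst placed had ranks of 1322, 988 and 1469. Without overlap of the 3 polysomal and 3 total arrays, 140 members were higher in polysomal RNA in light dcp5-1, 130 in dark dcp5-1 and 133 in light control. That holds for 20.2%, 18% and 16.5% of all probe sets tested. Over the 9 pairs of arrays with the same replicate number in these conditions, 146 members had a loading above 0 in each pair. Across all 4 conditions a member's mean loading spanned 0.338 at the median, and at most 0.914.

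Replicate 3 gave the highest loading in every condition. The medians of the 150 in replicates 1, 2 and 3 were 0.870, 1.12 and 1.20 in light dcp5-1, 0.939, 1.10 and 1.18 in dark dcp5-1, 0.978, 0.989 and 1.36 in light control, and 1.00, 1.21 and 1.28 in dark control. The medians of the other eligible probe sets stayed between -0.028 and 0.088 in the same pairs. Without replicate 3 the count of members called was 39 in light dcp5-1, 34 in dark dcp5-1 and 18 in light control, at median loadings of 0.96, 1.01 and 0.97. The share of all probe sets called was then 0.868%, 0.709% and 0.358%. Without replicate 2 the count in light dcp5-1 was 82, beside 2.53% of all probe sets.

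The transcript at the top of the list was also the one with the highest mean loading over the 3 other conditions, 1.84. AT1G55680 had 3.19, 3.14 and 3.48 in polysomal RNA of light dcp5-1 seedlings, against 1.66, 0.99 and 1.46 in their total RNA, as log2 signal relative to the array median. In dark dcp5-1 it had 3.07, 2.79 and 3.22 in polysomal RNA, against 1.31, 1.04 and 0.98 in total RNA. In light control the values were 3.02, 3.11 and 2.97 in polysomal RNA, against 1.21, 1.41 and 1.32 in total RNA. Every polysomal array was above every total-RNA array, and the lowest polysomal value, 2.79, was above the highest total value, 1.66. The loading of AT1G55680 came to 1.90 ± 0.17 (SE; limma, adjusted p = 2.0e-06) in light dcp5-1, 1.91 ± 0.17 (adjusted p = 1.8e-06) in dark dcp5-1 and 1.72 ± 0.17 (adjusted p = 3.9e-06) in light control, or 3.73-fold, 3.76-fold and 3.29-fold. In the selecting arrays of dark control it was 1.83.

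The next 5 transcripts of the list are AT3G07230, AT4G34555, AT1G67870, AT4G14900 and AT2G25670, and each was called in all 3 other conditions. AT4G14900 had a loading of 1.57 in light dcp5-1, 1.82 in dark dcp5-1 and 1.46 in light control, beside 1.51 in dark control. AT2G25670 had 1.45, 1.61 and 1.46, beside 1.49. These calls of AT4G14900, like those of AT1G55680, held without any single replicate or array. AT3G07230 had 1.44, 1.68 and 1.39, beside 1.64, with calls that ended without replicate 2 (adjusted p 0.052 to 0.070) or replicate 3 (0.061 to 0.17). AT4G34555 had 1.46, 1.32 and 1.35, beside 1.59, and AT1G67870 had 1.30, 1.42 and 1.73, beside 1.53. Without replicate 3 the calls of AT1G67870 ended (adjusted p 0.053 to 0.11), as did those of AT4G34555 and AT2G25670 in light control (0.055 and 0.053). Further down the list, AT3G18280 and AT4G30450 had means of 1.54 and 1.49 over the 3 other conditions. The files and the gene table give these transcripts a locus alone.

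Only 10 of the 150 carry a name beyond their locus (6.67%), against 17.1% of the other eligible probe sets. Those 10 are given here whatever their values, grouped by what the proteins do. SPR1 (SPIRAL1) binds cortical microtubules and keeps the growth of the hypocotyl and root straight, and SP1L3 is its relative SPIRAL1-LIKE3. The loading of SPR1 was 1.49, 1.25 and 0.99 in the 3 pairs of light dcp5-1, 1.24, 1.65 and 0.99 in dark dcp5-1, and 0.90, 0.95 and 1.09 in light control, with means of 1.24, 1.29 and 0.98 (adjusted p = 0.00016, 9.8e-05 and 0.00089, limma). SP1L3 had means of 1.09, 0.96 and 1.16 (adjusted p = 0.00068, 0.0016 and 0.00032). Both transcripts were thus called in all 3 conditions. They were also abundant, with mean total-RNA signals of 11.9 for SPR1 and 11.3 for SP1L3 on the log2 scale as deposited.

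Genes for protein turnover and sorting were the next group. CYS1, a cystatin that inhibits cysteine proteases, had loadings of 1.27 in light dcp5-1, 0.97 in dark dcp5-1 and 1.22 in light control. UBP25, a protease that removes ubiquitin, had 0.99, 0.93 and 1.33. SNF7.1 (VPS32), a subunit of the ESCRT-III complex that bends endosomal membranes, had 1.16, 1.25 and 1.30. All 3 genes were called in all 3 conditions, with the largest adjusted p at 0.0040 for UBP25 in dark dcp5-1 (limma). The 3 pairs of UBP25 read 1.01, 0.84 and 1.13 in light dcp5-1, against 1.18, 1.43 and 1.38 in light control, without overlap, while the test of that difference of -0.34 ± 0.29 (SE) gave an adjusted p of 1.00.

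Plastid and stress-related proteins made up the third group. The thioredoxin ty2, a plastid redox protein, had 1.09, 1.19 and 1.04 in light dcp5-1, dark dcp5-1 and light control, and Mfl1, a mitoferrin-like carrier of the plastid envelope, had 1.10, 1.01 and 0.89. Both were called in all 3 conditions (adjusted p 0.0016 to 0.019, limma). The calls of ty2 ended without each of 2, 1 and 4 single arrays in these conditions (adjusted p up to 0.082, 0.065 and 0.079). Without replicate 3 they ended in all 3 conditions (0.23, 0.11 and 0.32). One pair of Mfl1 stood low in each of them, with 0.57 in light dcp5-1, 0.63 in dark dcp5-1 and 0.15 in light control, each in replicate 1. The calls of Mfl1 held without replicate 1 but ended without replicate 3 in all 3 conditions (adjusted p = 0.15, 0.13 and 0.28). Those in dark dcp5-1 and light control also ended without replicate 2 (0.070 and 0.17), and the latter with the compared groups alone (0.062). HIRD11 (AT1G54410), a small dehydrin, had 0.94, 1.08 and 1.17, and it had the highest total-RNA signal of the 150, a mean of 12.6. Its call in light dcp5-1 ended without 1 polysomal array (adjusted p = 0.054) or without replicate 2 (0.051), and also when all arrays were quantile normalised (0.052). Without replicate 3 its calls ended in all 3 conditions (adjusted p = 0.13, 0.11 and 0.078).

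In the nucleus, NRPB12 is a small subunit shared by several RNA polymerases, and NUP155 is a scaffold protein of the nuclear pore. NRPB12 had loadings of 1.35 in light dcp5-1, 1.405 in dark dcp5-1 and 1.45 in light control (adjusted p = 0.0091, 0.0067 and 0.0049, limma). NUP155 stood apart from the other named genes, since its loading of 0.32, 0.74 and 0.47 was called in none of the 3 conditions (adjusted p = 0.47, 0.067 and 0.26). Its pairs read 0.01, 0.00 and 0.96 in light dcp5-1, 0.52, 0.56 and 1.13 in dark dcp5-1, 0.20, -0.04 and 1.23 in light control, and 0.68, 1.25 and 1.43 in dark control. Replicate 3 was the highest in each. With the replicate number as a block the call of NUP155 in dark dcp5-1 was made (adjusted p = 0.024), as it was with the arrays of the fractions paired (0.018). Of the 45 calls among these genes and the first 6 of the list, 1 ended without replicate 1, 11 without replicate 2 and 29 without replicate 3. Among the genes with a name, SPR1 alone lost none of its calls when a replicate was left out.

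**Figure D2:**
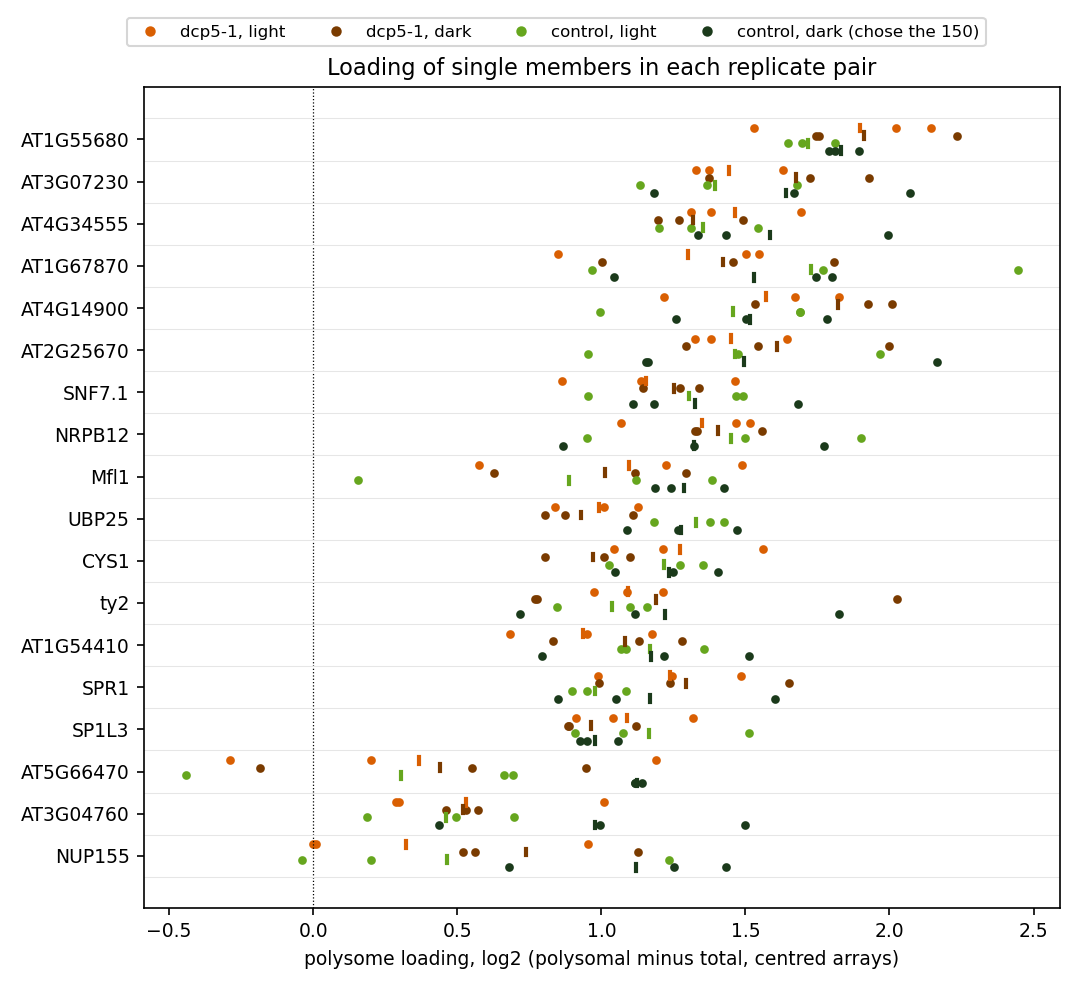
Loading (polysomal minus total RNA, log2, arrays centred) of the 6 transcripts with the highest dark control loading, of 9 named members, and of the 3 with the lowest mean loading in the other conditions, 1 of them NUP155; each point is 1 replicate pair, coloured by condition, and short vertical bars are the means of 3 pairs. Of the 18 transcripts, AT5G66470, AT3G04760 and NUP155 have means of at most 0.74 in the 3 conditions other than dark control, and the other 15 have means of 0.887 or more there.

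The weakest loading elsewhere was that of AT5G66470. It had 0.37 ± 0.42 (SE) in light dcp5-1, 0.44 ± 0.42 in dark dcp5-1 and 0.30 ± 0.42 in light control (adjusted p = 0.62, 0.55 and 0.69, limma), beside 1.13 in dark control. Its pairs ran from -0.29 to 1.19 in light dcp5-1, from -0.19 to 0.95 in dark dcp5-1 and from -0.44 to 0.69 in light control, but from 1.12 to 1.14 in dark control. AT3G04760 had 0.53, 0.52 and 0.46 in the 3 other conditions (adjusted p = 0.16, 0.17 and 0.23), beside 0.98. The other members called in none of the 3 were AT2G38870, AT2G44010, AT3G02480, AT1G08580, AT3G50900, AT1G19020, AT3G06980 and AT5G18600. All had mean loadings above 0.48 in each of these conditions, with adjusted p from 0.060 to 0.68. These 11 are the uncalled members of the fit without a block. With the replicate number as a block AT3G04760, AT5G18600 and AT5G66470 were still called in none of the 3, and with the fractions paired only AT5G66470 was.

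At the edge of the list, the last 4 members were AT4G16650, AT1G34110, AT3G62400 and AT3G59840, with dark control loadings of 0.968, 0.966, 0.965 and 0.964. The 4 probe sets that just missed it were those of ILR3, AT2G39390, AT1G26550 and AT5G56590, at 0.963, 0.962, 0.962 and 0.959. ILR3 encodes a bHLH transcription factor of iron homeostasis. The limit of 150 therefore falls within a smooth series. Where AT3G48570 is measured by 2 probe sets, the loadings were 1.26 and 0.99 in light dcp5-1, 1.37 and 1.19 in dark dcp5-1, 1.08 and 1.01 in light control, and 1.398 and 1.04 in dark control.

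Neither light nor genotype changed the loading of any member by a called amount where a test was possible. In dcp5-1, light minus dark loading had a median of -0.018 over the 150, ranged from -0.60 to 0.64, and was above 0 for 70 and below 0 for 80. No member passed the test in either direction (limma, Benjamini-Hochberg), and 1 had an unadjusted p under 0.05. Of all probe sets tested 0% passed, and 341 of 17059 had an unadjusted p under 0.05. In light, dcp5-1 minus control loading had a median of -0.049, ranged from -0.56 to 0.53, and was above 0 for 61 and below 0 for 89. Again 0 members and 0% of all probe sets passed the test, and 0 members against 338 of all probe sets had an unadjusted p under 0.05. The SE of such a difference was 0.323 at the median of the members, and the absence of calls does not show that loading was equal.

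Contrasts with the dark control arrays are descriptions, because those arrays were the ones in which the 150 stood highest. Light minus dark loading in control had a median of -0.059, with 53 above and 97 below 0, and dcp5-1 minus control loading in darkness had a median of -0.076, with 49 above and 101 below.

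Light changed the amount of some of these transcripts in both fractions, with no called change of their loading. In dcp5-1, light raised 18 of the 150 and lowered 14 in total RNA, where 10.8% of all probe sets tested were higher and 11.1% lower (limma, adjusted p under 0.05). In polysomal RNA light raised 16 and lowered 12, beside 10.4% and 10.6% of all probe sets. With the replicate number as a block, 25 were higher in polysomal RNA, beside 14.1% of all probe sets. The shares of the members, 12% and 9.33% in total RNA and 10.7% and 8.00% in polysomal RNA, were close to those of all probe sets. Of the 34 members called in either fraction, 26 were called in both, 15 higher and 11 lower, and all 34 had the same sign in both. The 2 fractions were hybridised to separate arrays but may share seedlings through the replicate number. The loading change of these 34 had a median size of 0.149 and a largest size of 0.61.

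The largest light change was that of AT1G14345. In total RNA it had 4.97, 4.52 and 4.30 in light dcp5-1 seedlings, against 1.97, 1.28 and 1.89 in dark dcp5-1 seedlings, relative to the array median. In polysomal RNA it had 5.66, 5.95 and 5.46 in light, against 3.15, 2.65 and 3.08 in darkness. No light array overlapped a dark one in either fraction. The change was 2.88 ± 0.25 (SE) in total RNA (limma, adjusted p = 9.2e-09) and 2.73 ± 0.25 in polysomal RNA (adjusted p = 2.1e-08), and loading differed by -0.15 ± 0.35 (adjusted p = 1.00).

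AT1G74730 had 5.09, 4.80 and 4.79 in total RNA of light dcp5-1, against 2.86, 2.10 and 2.58 in dark dcp5-1. Its polysomal RNA read 5.79, 6.001 and 5.86 in light, against 3.57, 3.29 and 3.41 in darkness. The arrays were again without overlap, and the changes of 2.38 in total and 2.46 in polysomal RNA differed by 0.08. AT1G55960, AT1G21500 and AT3G47070 rose by 2.84, 2.67 and 2.31 in total RNA and by 2.39, 2.52 and 1.98 in polysomal RNA. Among the named members, ty2 rose by 1.21 in total and 1.12 in polysomal RNA, and Mfl1 by 0.76 and 0.84 (adjusted p = 0.0036, 0.0071, 0.011 and 0.0052, limma). Both encode plastid proteins.

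In the other direction, the light change of AT1G34110 was -1.97 in total RNA and -1.78 in polysomal RNA, AT3G05920 -1.23 and -1.59, and AT5G22580 -1.42 and -1.31, all of them called. AT3G50900 had the largest fall in total RNA, by 2.45 (adjusted p = 0.00043, limma). Its polysomal RNA fell by 1.84 (adjusted p = 0.0061), a call that ended without replicate 1 of light dcp5-1 (adjusted p = 0.065) or replicate 2 of dark dcp5-1 (adjusted p = 0.051). Polysomal values of AT3G50900 were -0.65, 1.46 and 0.93 in light, against 2.25, 3.22 and 1.78 in darkness. Even the closest arrays stayed apart, at 1.46 in light and 1.78 in darkness.

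The counts of falling members varied with single arrays, as did those of all probe sets. The 14 in total RNA, beside 11.1% of all probe sets, became 9 without replicate 1, 2 or 3 of dark dcp5-1. They were also 9 without replicate 2 of light dcp5-1, and 8 without its replicate 3. The shares of all probe sets called lower were then 8.25%, 9.53%, 8.45%, 8.61% and 8.78%, in the same order. Without replicate 3 of all groups the members called higher and lower were 10 and 6 in total RNA, beside 5.67% and 4.59% of all probe sets, and 8 and 7 in polysomal RNA, beside 5.56% and 4.74%.

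**Figure D3:**
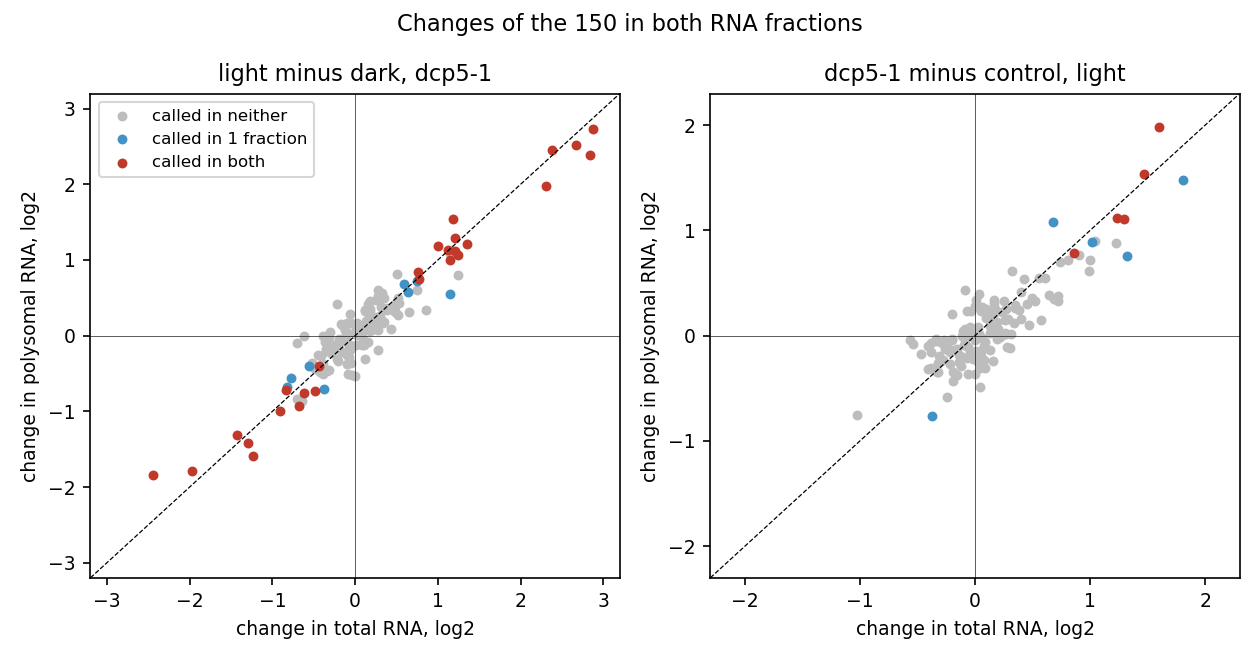
Change of each of the 150 in total RNA (horizontal axis) and in polysomal RNA (vertical axis), both log2 on centred arrays, for light minus dark in dcp5-1 on the left and dcp5-1 minus control in light on the right; red points are called in both fractions, blue points in 1 and grey points in neither, and the dashed line marks an equal change. On the left 26 points are called in both fractions and on the right 5, and the 34 and 10 points called in at least 1 fraction lie on the same side of 0 in both.

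Fewer members differed between the genotypes in light. In total RNA 8 of the 150 were higher in dcp5-1 than in control and 0 were lower, while 2.57% and 0.938% of all probe sets tested were called higher and lower (limma, adjusted p under 0.05). Without adjustment 26 members (17.3%) had p under 0.05, as had 2652 (15.5%) of the 17059 probe sets. In polysomal RNA 6 were higher and 1 lower, beside 2.79% and 1.48% of all probe sets. With the replicate number as a block the counts were 19 higher and 1 lower in total RNA, beside 5.75% and 3.08% of all probe sets, and 14 higher and 3 lower in polysomal RNA, beside 6.1% and 4.04%. Of the 10 members called in either fraction 5 were called in both, AT5G61660, AT2G44010, AT3G53980, AT5G10695 and AT3G18280, all higher in dcp5-1. Without replicate 3 the counts of higher members were 1 in each fraction, beside 0.492% of all probe sets in each. Without replicate 2 they were 2 in total and 1 in polysomal RNA, beside 0.973% and 0.92%. Counts also varied with single arrays. The 8 in total RNA became 4 without replicate 1 or 2 of light dcp5-1 or replicate 1 or 3 of light control. They became 3 without replicate 3 of light dcp5-1. The shares of all probe sets called higher were then 1.82%, 1.62%, 1.95%, 1.74% and 1.53%, in the same order, against 2.57% with all arrays. The 6 in polysomal RNA became 3 without replicate 3 of light dcp5-1, beside 1.47% of all probe sets. The polysomal call of AT3G18280 ended with quantile normalisation of all arrays (adjusted p = 0.075) or within each fraction (0.065), with the compared groups alone (0.12), without each of 3 single arrays (up to 0.15), and without replicate 2 (0.16) or 3 (0.36). For AT3G53980 the call in total RNA ended without each of 3 single arrays (up to 0.10) and without replicate 1 (0.064) or 2 (0.27), and that in polysomal RNA without each of 2 (up to 0.085) and without replicate 2 (0.21). The calls of AT5G10695 ended without replicate 1 or 3, at adjusted p = 0.14 and 0.056 in total RNA and 0.095 and 0.073 in polysomal RNA, and the polysomal one also without each of 2 single arrays (up to 0.056).

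AT5G61660 was the gene of this comparison with the smallest adjusted p in total RNA. Its total RNA was 2.21, 2.07 and 2.32 in light dcp5-1, against 0.98, 0.96 and 0.77 in light control, and its polysomal RNA was 2.65, 3.16 and 3.16 in light dcp5-1, against 1.42, 2.08 and 2.14 in light control. The arrays did not overlap in either fraction. The differences were 1.30 ± 0.24 (SE; adjusted p = 0.0018, limma) and 1.11 ± 0.24 (adjusted p = 0.0070). Without replicate 3 neither passed (adjusted p = 0.13 and 0.12), and without replicate 2 the polysomal one did not (adjusted p = 0.10).

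AT2G44010 differed most in polysomal RNA, with 1.66, 2.82 and 2.61 in light dcp5-1 against -0.33, 0.79 and 0.68 in light control. The difference was 1.98 ± 0.42 (adjusted p = 0.0066, limma) and that in total RNA 1.60 ± 0.42 (adjusted p = 0.033). The call in total RNA ended without 5 of the 6 arrays taken singly (adjusted p up to 0.16), and that in polysomal RNA without replicate 2 or replicate 3 (adjusted p = 0.053 and 0.25). AT1G14730 was higher in polysomal RNA by 1.08 (adjusted p = 0.0031), while its total RNA differed by 0.68 (adjusted p = 0.074). Its call ended without replicate 2 or replicate 3 (adjusted p = 0.080 and 0.13). The 1 lower member, AT1G66820, differed by -0.77 in polysomal RNA (adjusted p = 0.015) and by -0.37 in total RNA (adjusted p = 0.33). That call was lost (0 lower) without replicate 2, without replicate 3, and without the polysomal array of light dcp5-1 replicate 1 or light control replicate 3.

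The genes of the 150 were shorter than those of the other eligible probe sets, a feature that the choice did not use. Measured from start to end with introns in the RefSeq TAIR10.1 annotation, they had a median length of 1373.5 bases (quartiles 1025 and 2182), against 2331 bases (1743 and 3201) for the other eligible probe sets. Genes shorter than 1000 bases made up 22.7% of the members (34 of 150), against 4.43% of the others (205 of 4632). Those shorter than 1500 bases made up 58.0% (87), against 16.3% (757), and 15 of the 150 eligible probe sets with the lowest dark control loading were as short. Genes of 3000 bases or more made up 13.3% (20), against 29.9% (1383). The shortest, AT5G24570, spans 452 bases, and the longest, AT3G50370, spans 8380, followed by NUP155 with 7037. These are descriptions, with no test.

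Read the other way, 14.2% of eligible probe sets for genes under 1000 bases were members, 8.76% of those from 1000 to 1499 bases, 2.22% from 1500 to 1999, 1.38% from 2000 to 2999, 1.24% from 3000 to 3999 and 1.68% of those from 4000 bases up. Among all eligible probe sets, too, the shortest genes had the highest median loading in each condition. For genes under 1000 bases the median loading was 0.49 in light dcp5-1, 0.45 in dark dcp5-1, 0.56 in light control and 0.48 in dark control. The medians fell from class to class up to 2000 to 2999 bases, where they were -0.043, -0.053, -0.030 and -0.039. Beyond that there was no steady fall, and in darkness the medians rose. For genes of 4000 bases or more they were -0.056, 0.044, -0.043 and 0.042. Across the 4782 eligible probe sets, Spearman's rho between loading and gene length was -0.24, -0.11, -0.25 and -0.16. These correlations are across genes, which are not independent replicates and share the same arrays. Within the 150 the rho was -0.13, -0.031, -0.27 and 0.021. In light control it was thus no weaker than among all eligible probe sets. The range of dark control loading was cut by the choice itself, which limits the last value. The span of a gene includes introns and is not the length of its mRNA, which was not used here.

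**Figure D4:**
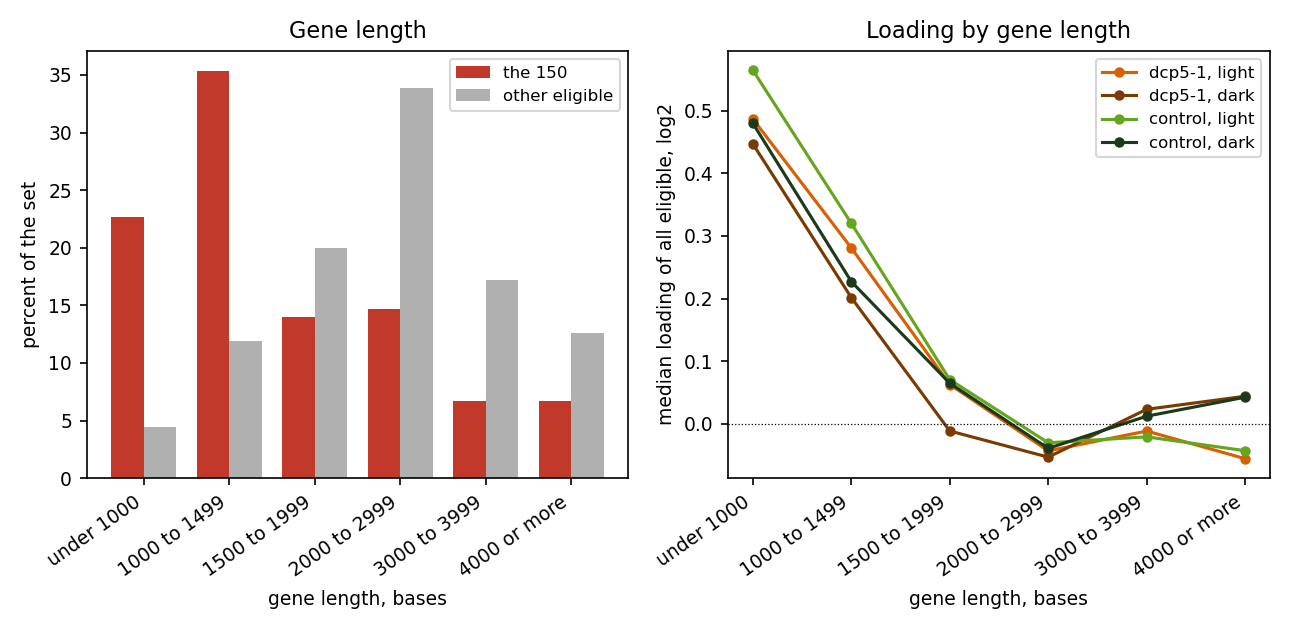
Left, percent of the 150 (red) and of the other 4632 eligible probe sets (grey) in 6 classes of RefSeq gene length, in bases; right, median loading of all 4782 eligible probe sets in the same classes, on a log2 scale, 1 line a condition. Members under 1500 bases make up 58.0% against 16.3%, and the median loading at under 1000 bases is 0.45 to 0.56 in the 4 conditions.

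The mean total-RNA signal of the 150 had a median of 9.58 on the log2 scale as deposited, against 9.29 for the other eligible probe sets. A single RefSeq transcript was annotated for 97 members (64.7%), against 51.9% of the others. The members lay on all 5 nuclear chromosomes, 44 on chromosome 1, 21 on chromosome 2, 34 on chromosome 3, 18 on chromosome 4 and 33 on chromosome 5. All 150 genes are annotated as protein coding.

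Of 17 product classes searched in the gene names, 16 matched an eligible probe set and 1 of the members matched any of them, UBP25 in the ubiquitin and proteasome class of 35. Names for genes of cytosolic ribosomal proteins were matched by 0 eligible probe sets, so that class was not analysed here. Classes without members had medians on both sides of 0. The cell wall class, with 34 eligible probe sets and 0 members, had median loadings of -0.25 in light dcp5-1, -0.24 in dark dcp5-1, -0.37 in light control and -0.34 in dark control. Mitochondrial respiration, with 10 eligible probe sets and 0 members, had 0.35, 0.31, 0.27 and 0.41. With 140 of the 150 known here by their locus alone, these counts say little about what the list encodes.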

How the data were processed

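Per the labels, aerial parts of 4-d-old etiolated seedlings gave total and polysome-bound RNA, and 300 ng were labelled for each ATH1 array. The deposited values are log2 signals, and the submitters' processing notes name GCOS 1.4. The steps behind the scaling of the polysomal arrays are not given in the sources used here.

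Each array was centred on the median of its non-control probe sets. After removal of the 64 controls and of the dimmest 25% of probe sets by mean, limma 3.58.1 in R 4.3.3 was fitted to 17059 probe sets on all 24 arrays (8 group means, prior variance allowed to follow intensity). Calls are at a Benjamini-Hochberg adjusted p of 0.05. The fit was tested on simulated data. The number of arrays limits the precision. The platform table names 14016 probe sets, 13513 of them with 1 gene, and 13367 map to 1 nuclear gene. Replicate numbers pair the samples: residuals of same-numbered arrays correlated at 0.15 to 0.53 in all pairs of groups compared, so conditions share part of their deviations by number. The main fit, and the fits that left out a replicate number or an array, did not model this. Their SEs, adjusted p and calls therefore ignore the pairing, which enters only the alternatives named as block or pairing.

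The members and lists were chosen with earlier results of these data known. Named genes were the first members, those at the limit, the highest and lowest over the other conditions, and up to 6 called members with the largest change in each test. The 10 members with a name, and other called members given as examples, were added after values were seen. Alternatives changed the normalisation, the filter, the groups in the fit, the variance prior, array weights or pairing, or left out a replicate number or an array.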

Additional observations from a re-analysis of the deposited data

How the results depend on the processing

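Centring decided the counts of loading, because without it the array-wide offset of the polysomal arrays enters every difference. On the values as deposited, 1 member was higher in polysomal RNA in light dcp5-1, 0 in dark dcp5-1 and 1 in light control. All probe sets called higher were then 0.0293%, 0.00586% and 0.0352%. The members falling with light in dcp5-1 were 5 in total and 2 in polysomal RNA (4.82% and 2.29% of all). The genotype counts in light were 1 higher in total RNA (0.721% of all). In polysomal RNA they were 0 higher and 0 lower (0.815% and 0.217% of all). Also with these values, loading turned negative in light dcp5-1 for AT5G66470 (-0.59), AT3G04760 (-0.43), NUP155 (-0.64) and AT1G54410 (-0.025). In dark dcp5-1 it did so for AT4G34555 (-0.010), AT5G66470 (-0.89), AT3G04760 (-0.81), NUP155 (-0.59), SNF7.1 (-0.077), Mfl1 (-0.32), UBP25 (-0.40), CYS1 (-0.36), ty2 (-0.14), AT1G54410 (-0.25), SPR1 (-0.037) and SP1L3 (-0.36), and in light control for AT5G66470 (-0.66), AT3G04760 (-0.51), NUP155 (-0.50) and Mfl1 (-0.082). AT5G66470 also turned negative in light dcp5-1 without replicate 1 (-0.043) or its polysomal array (-0.041), where leaving out replicates or arrays gave up to 0.70, and in light control with array weights (-0.092), without polysomal replicate 1 (-0.18) or without total replicate 2 (-0.24), where such fits gave up to 0.68; the cause was not tested.

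With the replicate number as a block (replicate block), 25 members rose with light in polysomal RNA of dcp5-1 (14.1% of all probe sets), and in light dcp5-1 against control 19 were higher and 1 lower in total RNA (5.75% and 3.08% of all) and 14 higher and 3 lower in polysomal RNA (6.1% and 4.04%). The blocked loading counts were 140 in light dcp5-1, 145 in dark dcp5-1 and 142 in light control (13.7%, 13.6% and 14.5% of all). Among the loading calls of the named genes it changed 1, that of NUP155 in dark dcp5-1. With the fractions paired the counts were 148, 147 and 147 (16.8%, 16.9% and 17.7% of all), and AT3G04760 was called in light dcp5-1 (adjusted p = 0.026) and dark dcp5-1 (0.029). The higher members in total RNA of light dcp5-1 numbered 5 without the variance trend, 19 with array weights and 14 with the compared groups alone. All probe sets called higher were then 2.32%, 6.17% and 2.86%. The lower ones numbered 1 in each of the last 2 fits (4.04% and 0.827% of all). The lower member in polysomal RNA was lost (0) with the compared groups alone (0.375% of all).

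Leaving out single replicates or arrays gave loading counts of 39 to 120 in light dcp5-1, 34 to 117 in dark dcp5-1 and 18 to 124 in light control. All probe sets called higher then ran from 0.868% to 6.88%, 0.709% to 6.23% and 0.358% to 9.78%. With light in dcp5-1, 10 to 20 members were higher and 6 to 11 lower in total RNA (5.67% to 9.68% and 4.59% to 9.53% of all). In polysomal RNA 8 to 19 were higher and 7 to 11 lower (5.56% to 9.58% and 4.74% to 8.9%). Between genotypes in light the ranges were 1 to 10 and 0 to 1 in total RNA (0.492% to 2.35% and 0.0821% to 1.18%). In polysomal RNA they were 1 to 7 and 0 to 1 (0.492% to 2.59% and 0.17% to 1.36%). No alternative gave a called change of loading among the 150. Other rules for the list shared 145 members with quantile normalisation, 112 and 97 with level thresholds of 7 and 9, and 127, 123 and 130 without replicate 1, 2 or 3 of dark control.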

Other observations

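Loading correlated negatively with gene length in every replicate pair, to an extent that varied between pairs. Across the 4782 eligible probe sets, Spearman's rho between loading and gene length was -0.166, -0.198 and -0.279 in replicates 1, 2 and 3 of light dcp5-1, -0.075, -0.070 and -0.148 in dark dcp5-1, -0.295, -0.158 and -0.239 in light control, and -0.127, -0.093 and -0.225 in dark control. Each light pair lay below 5 of the 6 dark pairs, and replicate 3 of dark control was within the range of the light pairs.

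The light change of loading in dcp5-1 had a median of 0.093 for the 205 other eligible probe sets of genes under 1000 bases, with 144 above and 61 below 0, and of -0.078 for the 1383 of genes of 3000 bases or more, with 494 above and 889 below. At 1000 to 1999 and 2000 to 2999 bases the medians of the other eligible probe sets were 0.065 and 0.00065. Among the 150, the medians were 0.059 for 34 short genes, with 19 above and 15 below 0, and -0.021 for 20 long ones, with 7 above and 13 below. Between these lengths they were 0.016, with 38 above and 36 below, and -0.071, with 6 above and 16 below. The medians of the members were thus not ordered by length. Genes share the same arrays and are not independent replicates. No single member had a called change.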
